A study of Rattus norvegicus with 4 samples.

Results

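The genes described here serve the entry of secreted proteins into the endoplasmic reticulum (ER), their folding there and the unfolded protein response (UPR), in rat mammary gland. They were chosen as a list of 43 symbols, and all probe sets whose single platform symbol is on the list were taken. The platform annotation held 42 of them, through 61 of 20832 probe sets with 1 symbol, among 14217 genes in all. The UPR sensor Ern1 was the symbol without a probe set, so it is not analysed here. All 42 genes lay above the floor signal of 91.5 in all 4 arrays, so none was lost to a filter on low signal.

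RNA was taken from mammary glands of 4 groups and hybridised to 1 Affymetrix array per group. The mutant strain is the Hirosaki hairless rat (HHR), and homozygous and heterozygous HHR were sampled on day 1 of lactation. Sprague-Dawley rats (SDR) without the HHR genotype were sampled on day 1 of involution, when the gland regresses after milk removal stops, and on day 1 of lactation. Neither age, nor the number of rats pooled for an RNA, nor the length of lactation before involution is stated in the sources used here, so lactation stage and the end of milk removal cannot be told apart in the involution array. With 1 array per group there is no replicate error and no test for any value below. Differences are described by size, and 2-fold and 1.5-fold are used as thresholds.

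A secreted protein is recognised by its signal peptide while the ribosome makes it. The signal recognition particle carries the ribosome to the ER membrane, the Sec61 channel with its TRAP partner takes the chain in, signal peptidase removes the signal peptide and the oligosaccharyltransferase attaches sugar chains. Chaperones and disulfide isomerases then fold the protein, and misfolded chains are pulled back out for degradation. When unfolded chains accumulate, the UPR sensors switch on chaperone genes through the factors Xbp1 and Atf6. The lactating mammary cell, which exports caseins and whey proteins, is known for a large ER.

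The promoters of the list were examined because UPR factors are known to act through short DNA elements, the ER stress elements. RefSeq promoters of build GRCr8, taken as the 250 bases before the gene start, were found for 37 of the 43 symbols. Atf6, Ern1, Manf, Pdia3, Pdia6 and Sec61a1 had no entry. The element ERSE, spelled CCAAT, 9 bases of any kind and CCACG, was searched on both strands. It was present in 7 of the 37 genes (18.9%) and in 22 of 33469 promoters of all genes (0.0657%). Here and for the elements below, the first share counts genes and the second counts promoters, of which a gene can have several. Of the matches, 7 in 6 genes are shown with 10 bases on each side and the fixed letters in capitals. A match on the other strand reads CGTGG, a spacer and ATTGG. They lay at chr19:40213125-40213163 for Calr, chr7:121789229-121789267 for Creld2, chr15:102432524-102432562 for Dnajc3, chr7:23012337-23012375 for Hsp90b1, chr7:23012441-23012479 for Hsp90b1, chr3:38452963-38453001 for Hspa5, chr14:84604548-84604586 for Xbp1.
Calr: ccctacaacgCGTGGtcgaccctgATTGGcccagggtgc
Creld2: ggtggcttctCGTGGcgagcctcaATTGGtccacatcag
Dnajc3: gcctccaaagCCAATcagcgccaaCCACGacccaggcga
Hsp90b1: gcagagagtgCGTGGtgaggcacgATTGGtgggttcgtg
Hsp90b1: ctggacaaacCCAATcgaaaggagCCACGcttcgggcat
Hspa5: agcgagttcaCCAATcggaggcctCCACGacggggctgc
Xbp1: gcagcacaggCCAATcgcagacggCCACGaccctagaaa

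A compact form, ERSE-II, spelled ATTGG, 1 base of any kind and CCACG, was present in 2 of the 37 genes (5.41%) and in 14 of all promoters (0.0418%). Its 3 matches lay at chr19:10614811-10614841 for Herpud1, chr8:53602684-53602714 for Hyou1, chr8:53602784-53602814 for Hyou1. Hyou1 is listed with 2 gene starts, and both of its matches lie before the start at the lower coordinate.
Herpud1: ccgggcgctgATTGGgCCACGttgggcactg
Hyou1: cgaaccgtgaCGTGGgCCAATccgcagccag
Hyou1: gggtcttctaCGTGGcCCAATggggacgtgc

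The UPR element spelled TGACGTGG, on either strand, was found in 1 gene of the list, Hyou1 (2.70% of the 37, against 0.52% of all promoters). It overlaps an ERSE-II match there. None of the 21 genes of entry into the ER, from the signal recognition particle to the oligosaccharyltransferase, held ERSE or ERSE-II, against 9 of the 16 genes of folding, sensing and degradation. Such a match is a description of letters and not a measured binding site. The list was chosen to hold UPR genes, the kind of gene these elements are known from. The shares above are therefore a description and no test of the list. As examples, the promoter of the chaperone gene Hspa5 (chr3:38452766-38453015, plus strand) is printed with its ERSE in capitals, and that of Ssr1 (chr17:27039043-27039292, plus strand), a TRAP subunit with no match that had the lowest log2 difference of the list in involution.
Hspa5: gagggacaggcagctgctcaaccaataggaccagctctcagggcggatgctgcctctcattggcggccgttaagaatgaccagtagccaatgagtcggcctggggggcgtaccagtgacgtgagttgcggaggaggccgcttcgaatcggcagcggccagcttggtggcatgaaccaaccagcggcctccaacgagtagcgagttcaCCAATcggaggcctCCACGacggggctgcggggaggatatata
Ssr1: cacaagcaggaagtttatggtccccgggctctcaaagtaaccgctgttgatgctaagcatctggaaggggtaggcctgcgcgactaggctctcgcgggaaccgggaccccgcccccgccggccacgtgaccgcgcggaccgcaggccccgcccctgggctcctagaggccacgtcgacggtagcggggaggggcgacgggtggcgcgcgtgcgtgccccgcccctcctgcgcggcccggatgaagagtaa

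The arrays were compared first as a whole. The casein Csn2, which defines the secretory cell, had a signal of 46514 in homozygous HHR, 55859 in heterozygous HHR and 43743 in SDR involution, against 54651 in SDR lactation, so this milk protein gene was strongly present in all 4 arrays. For the Gapdh control the 3′ probe set over the 5′ probe set, a ratio that grows as RNA degrades, was 2.30 in homozygous HHR, 1.93 in heterozygous HHR and 1.60 in SDR involution, against 1.17 in SDR lactation. The actin ratio was 5.91, 7.86 and 4.80 in the same order, against 4.60 in SDR lactation. The spiked-in cre control is a bright RNA of phage origin. Its mean log2 difference from SDR lactation, over its 3′ and 5′ probe sets, was -0.13 in homozygous HHR, 0.05 in heterozygous HHR and -0.45 in SDR involution. The part of RNA quality and of the bright end of the scale in the differences below was not tested.

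SDR involution was compared with SDR lactation to describe the secretory machinery in the involuting gland. The values in this paragraph are those of the probe set that represents each gene. Of the 18 genes of the channel, TRAP, signal peptidase and oligosaccharyltransferase, 13 were at least 1.5-fold lower in involution and 3 were higher. The 4 listed genes of the signal recognition particle were less than 1.5-fold from their SDR lactation signal. Of the 5 chaperones, 3 were at least 1.5-fold lower, while Hspa5 and Hsp90b1 were less than 1.5-fold from SDR lactation. Of the 42 genes 14 were at least 2-fold lower (33.3%, against 8.94% of 11014 measured genes) and 0 were at least 2-fold higher (10.3% of measured genes). At 1.5-fold 22 were lower (18.0% of measured genes) and 2 higher (23.5%). In all 35 of the 42 were lower (83.3%, against 45.7% of measured genes). The median log2 difference was -0.68 over the list and 0.08 over all measured genes. Among 6609 genes whose mean signal lay within the range of the list, 10.4% were at least 2-fold lower and 8.93% higher, with a median of 0.03.

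TRAP is the translocon-associated protein complex that helps chains into the channel. By the probe set that represents each gene, all 4 of its subunits were at least 2-fold lower in involution. Ssr1 had a signal of 4957 in homozygous HHR, 6715 in heterozygous HHR and 1188 in SDR involution, against 5834 in SDR lactation. It was thus 4.91-fold lower in involution, and a further Ssr1 probe set was 3.94-fold lower. Ssr2 had 7073 in homozygous HHR, 6214 in heterozygous HHR and 2840 in involution, against 9787 in SDR lactation, a 3.45-fold lower signal in involution. Ssr4 had 21674, 19976 and 7533 in the same order, against 26283 in SDR lactation (3.49-fold lower in involution). For Ssr3 the signal was 13199, 15253 and 4898, against 15230 in SDR lactation (3.11-fold lower). Its further probe sets were 7.43-fold and 1.94-fold lower in involution. The first of these had 504 in homozygous HHR, 572 in heterozygous HHR and 237 in involution, against 1762 in SDR lactation. In each of the 4 genes the involution array lay below all 3 lactation arrays. By the representing probe sets, the 3 lactation arrays differed from each other less than involution did from any of them. That does not hold for the Ssr3 probe set with 1762 in SDR lactation.

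The Sec61 channel split by subunit. Sec61a1, the pore itself, had 7332 in homozygous HHR, 9054 in heterozygous HHR and 2562 in involution, against 8734 in SDR lactation, a 3.41-fold lower signal in involution. Sec61b, a small partner of the pore, had 14966 in homozygous HHR, 14712 in heterozygous HHR and 4841 in involution, against 20441 in SDR lactation (4.22-fold lower). Sec61g, the other small partner, had 11400, 13055 and 7036, against 13465 in SDR lactation, 1.91-fold lower and short of the 2-fold threshold. The accessory proteins Sec62 and Sec63, which help chains that enter after translation, did not follow the pore. Sec62 had 11092 in homozygous HHR, 10594 in heterozygous HHR and 11357 in involution, against 7764 in SDR lactation, a log2 difference of 0.55 in involution, while its further probe set gave -0.11. Sec63 had 1495, 1674 and 1618, against 1409 in SDR lactation, a log2 difference of 0.20 in involution, and its further probe sets above the floor gave 0.34 and -0.89. The direction of both genes in involution therefore depends on the probe set.

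The signal recognition particle, which acts before the channel, had a median log2 difference of -0.14 in involution. By the probe set that represents each gene, 0 of 4 members reached 1.5-fold. Of its other subunits measured, Srp19 was 1.61-fold lower and Srp54a had a log2 difference of -0.43. Srp14, part of the domain that pauses translation, had 3682 in homozygous HHR, 3259 in heterozygous HHR and 5401 in involution, against 5497 in SDR lactation. Srp68, a scaffold subunit, had 1831, 2196 and 2520, against 2648 in SDR lactation. For both genes the signals of involution and SDR lactation were close, and those of the HHR arrays were the lower ones. Srp9, the partner of Srp14, had 3419, 2813 and 2783, against 3198 in SDR lactation, and Srp72, the partner of Srp68, had 2201, 2925 and 1863, against 2515 in SDR lactation. Further Srp72 probe sets gave log2 differences of -0.29 and -0.78 in involution, and the latter is past 1.5-fold, at 1.72-fold lower.

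**Figure D1:**
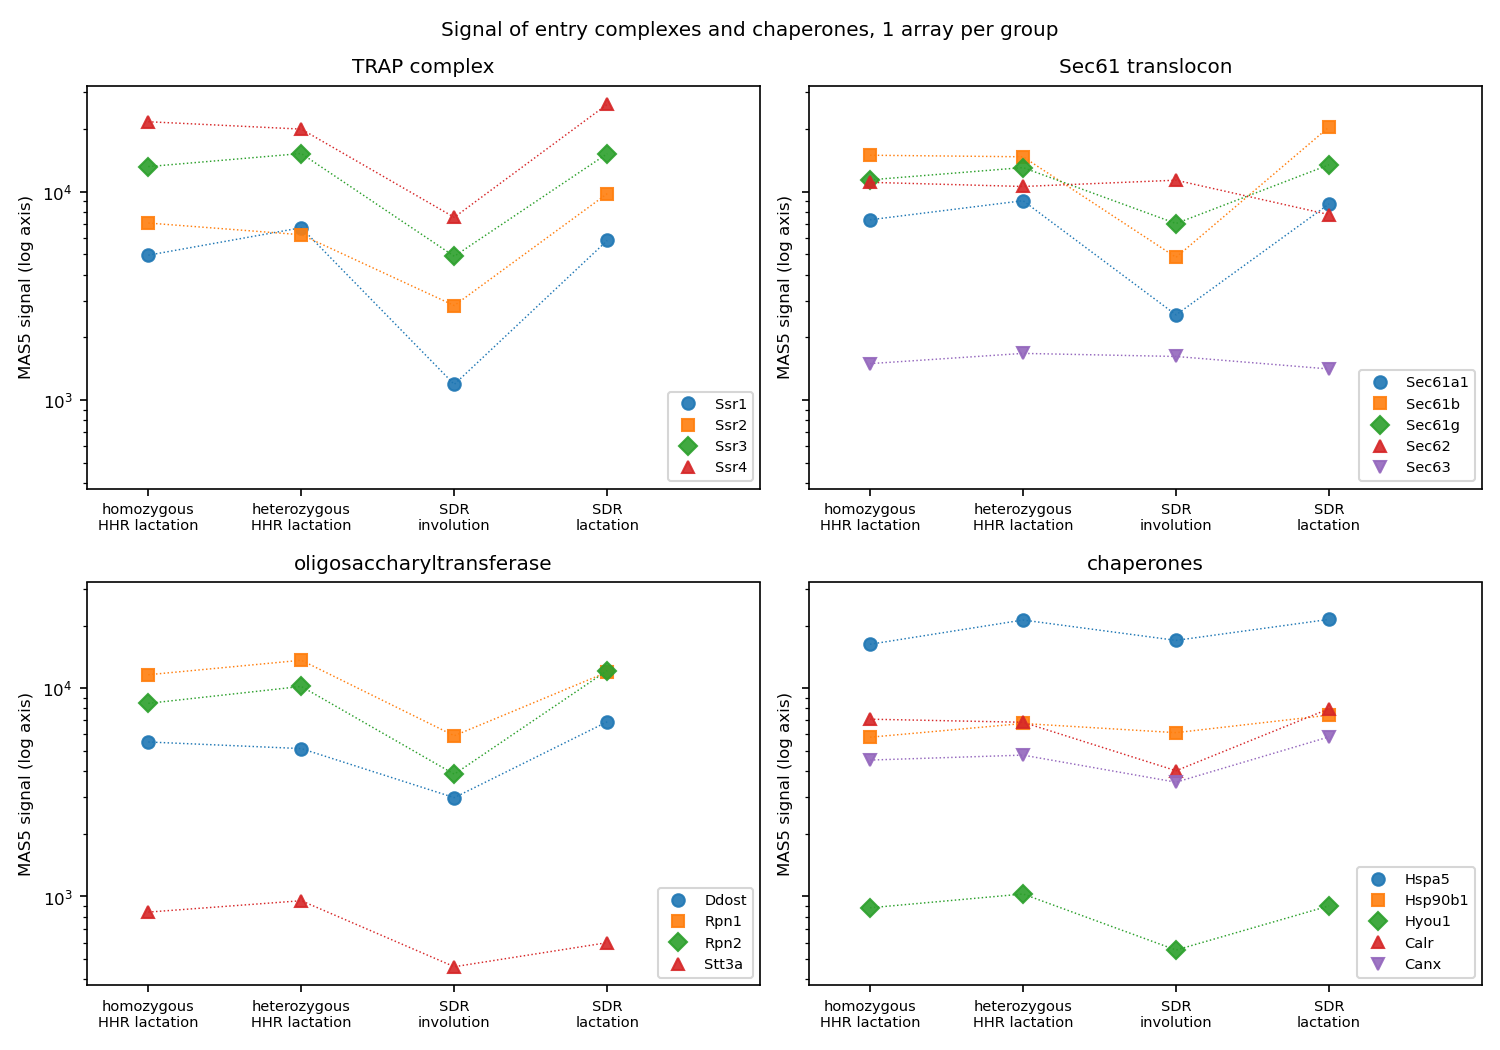
MAS5 signal (log axis) of the TRAP, Sec61, oligosaccharyltransferase and chaperone genes in each of the 4 arrays, with 1 point per gene and array and dotted lines that only join points of a gene. All 4 TRAP genes have their lowest point in SDR involution, while Hspa5 stays between 16255 and 21401 in all arrays.

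Signal peptidase, which cuts the signal peptide off, had 3 of 5 subunits at least 2-fold lower in involution. Spcs2, an accessory subunit, had 4908 in homozygous HHR, 5125 in heterozygous HHR and 3332 in involution, against 7087 in SDR lactation (2.13-fold lower in involution). Spcs3, a subunit of the enzyme core, had 9488, 13077 and 5703, against 11826 in SDR lactation (2.07-fold lower). The catalytic subunits are encoded by a pair of paralogs, and these went apart. Sec11c had 7120 in homozygous HHR, 6718 in heterozygous HHR and 3969 in involution, against 8178 in SDR lactation, 2.06-fold lower, whereas Sec11a had 2295, 1991 and 3326, against 2593 in SDR lactation, a log2 difference of 0.36 in involution. Spcs1, another accessory subunit, had 7985, 9002 and 9211, against 10236 in SDR lactation, a log2 difference of -0.15.

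The oligosaccharyltransferase had 3 of 4 members at least 2-fold lower in involution. Rpn2 had 8459 in homozygous HHR, 10198 in heterozygous HHR and 3865 in involution, against 12154 in SDR lactation (3.14-fold lower in involution). Ddost had 5518, 5130 and 2982, against 6899 in SDR lactation (2.31-fold lower), and Rpn1 had 11607, 13622 and 5913, against 11953 in SDR lactation (2.02-fold lower). These are non-catalytic subunits. Stt3a, a catalytic subunit that works beside the channel, had 842 in homozygous HHR, 954 in heterozygous HHR and 460 in involution, against 600.2 in SDR lactation, a log2 difference of -0.38 in involution, and its further probe set was 2.13-fold lower. Over the 18 genes from the channel to the oligosaccharyltransferase, 12 were at least 2-fold lower in involution and the median log2 difference was -1.07.

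In bulk tissue, fewer cells of a type and less RNA per cell cannot be told apart. Markers of the milk-secreting luminal epithelium were therefore set beside these values. All 11 were on the array and above the floor, and their summed signal was 294826 in homozygous HHR, 315171 in heterozygous HHR and 307543 in involution, against 317242 in SDR lactation, most of it from milk protein genes near the top of the signal range. In involution 3 of the 11 were at least 2-fold higher (27.3%, against 10.3% of measured genes) and 1 lower (9.09%, against 8.94%). The luminal keratin Krt8 had 22880 in involution and 5233 in SDR lactation, and the epithelial adhesion gene Epcam had 31413 in involution and 18299 in SDR lactation. Elf5, the transcription factor of secretory differentiation, had 3420 in involution and 13668 in SDR lactation. In all, 6 of the 11 were lower in involution, namely Elf5 and the 5 milk protein genes (log2 differences from -0.41 to -0.32), and 5 were higher, with a list median of -0.32.

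Plasma cells, which are also rich in ER, were followed through 7 of 10 B and plasma cell markers on the array, of which Cd79b, Ms4a1 and Pou2af1 were at the floor in all 4 arrays. Their summed signal was 2260 in homozygous HHR, 2030 in heterozygous HHR and 10250 in involution, against 1995 in SDR lactation, and Sdc1, which epithelium also makes, contributed 8233 of the involution sum. Of these markers 3 were measured in involution against SDR lactation, and all 3 were higher in involution. Their median log2 difference was 1.10, and the lowest was 0.685, of Mzb1. The adipocyte sum over 6 of 7 markers, with Lep at the floor in all arrays, was 21077 in homozygous HHR, 18831 in heterozygous HHR and 8689 in involution, against 31121 in SDR lactation. Fabp4, a fatty acid binding protein that endothelium and macrophages also make, contributed 23931 of the SDR lactation sum. Of the 5 adipocyte markers above the floor, 4 were higher in homozygous HHR (median log2 difference 0.69), 4 were higher in heterozygous HHR (median 0.34) and 0 were higher in involution (median -0.98). The part of these cell types in the differences was not tested.

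Folding genes differed less in involution. The 5 chaperones had a median log2 difference of -0.70, with 0 at least 2-fold lower and 3 at least 1.5-fold lower. Hspa5, the main ER chaperone and the best-known UPR target, had 16255 in homozygous HHR, 21254 in heterozygous HHR and 16967 in involution, against 21401 in SDR lactation, a log2 difference of -0.33 in involution that turned to 0.02 with quantile normalization. Hsp90b1, the ER form of Hsp90, had 5817, 6770 and 6117, against 7426 in SDR lactation, a log2 difference of -0.28 in involution. Both differences are smaller in size than the -0.45 of the spiked-in control. Calr, calreticulin, which binds sugar chains of new proteins, had 7099 in homozygous HHR, 6862 in heterozygous HHR and 4016 in involution, against 7964 in SDR lactation (1.98-fold lower in involution). Its membrane-bound relative Canx had 4518, 4773 and 3538, against 5839 in SDR lactation, a log2 difference of -0.72, but its further probe sets gave 0.22 and -1.81, so its direction depends on the probe set. Hyou1, an exchange factor of Hspa5, was 1.63-fold lower in involution, with 883 in homozygous HHR, 1028 in heterozygous HHR and 553 in involution, against 901 in SDR lactation.

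The disulfide isomerases, which make and rearrange disulfide bonds, were lower in involution in 4 of 4 genes, at a median log2 difference of -0.80. Of all measured genes 45.7% were lower in that comparison. Pdia4 had 1404 in homozygous HHR, 1931 in heterozygous HHR and 991 in involution, against 2427 in SDR lactation (2.45-fold lower in involution). P4hb, protein disulfide isomerase itself, had 17312, 17529 and 10107, against 18187 in SDR lactation (1.80-fold lower). The HHR arrays lay close to SDR lactation for P4hb and below it for Pdia4. Pdia6 had 7859, 8809 and 6038, against 10102 in SDR lactation (1.67-fold lower), and Pdia3 had 7042, 7247 and 5710, against 7858 in SDR lactation (1.38-fold lower), while a dim further probe set of Pdia3 was 2.71-fold higher in involution.

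The co-chaperones of Hspa5 went both ways, with a median log2 difference of 0.06 in involution. Dnajb9, a J-domain protein that also holds the sensor Ern1 inactive, had 1240 in homozygous HHR, 911 in heterozygous HHR and 1172 in involution, against 2619 in SDR lactation. It was 2.11-fold, 2.87-fold and 2.23-fold lower, so the SDR lactation array stood above the other 3, which share it as the comparator. Dnajc3, also known as P58IPK, an inhibitor of the translation-blocking kinase PERK, had 2540 in homozygous HHR, 2978 in heterozygous HHR and 3379 in involution, against 1914 in SDR lactation (1.76-fold higher in involution). Dnajb11, which brings clients to Hspa5, had 1138, 2211 and 1558, against 953 in SDR lactation (1.63-fold higher in involution). Dnajb9 is thus lowest, and Dnajb11 highest, in the heterozygous array. Sdf2l1, a partner of Dnajb11, had 1210, 2099 and 942, against 1412 in SDR lactation, a log2 difference of -0.58 in involution. Of the small secreted stress proteins, Creld2 had 1095, 1543 and 1477, against 1062 in SDR lactation, and Manf had 3524, 4541 and 3741, against 4571 in SDR lactation, log2 differences of 0.48 and -0.29 in involution.

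Xbp1, the transcription factor of the UPR that is also known to be required for secretory cell differentiation, had 16419 in homozygous HHR, 15677 in heterozygous HHR and 13748 in involution, against 24074 in SDR lactation (1.75-fold lower in involution). All 3 lay below SDR lactation. Splicing of its RNA, the step that activates it, was not analysed here. Atf6, the other factor of the list, had 2356, 2921 and 1783, against 2346 in SDR lactation, a log2 difference of -0.40 in involution. Its further probe set gave -0.94.

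Genes of ER-associated degradation had a median log2 difference of -0.27 in involution. Edem1, which marks misfolded glycoproteins, had 2701 in homozygous HHR, 2106 in heterozygous HHR and 1657 in involution, against 2625 in SDR lactation (1.58-fold lower in involution). Its further probe sets gave log2 differences of -0.73 and 0.02. Sel1l, the adaptor of the degradation ligase, had 403, 349 and 483, against 448 in SDR lactation, a log2 difference of 0.11. Herpud1, a UPR-induced membrane protein of the same machinery, had 1117, 937 and 996, against 1199 in SDR lactation, a log2 difference of -0.27.

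**Figure D2:**
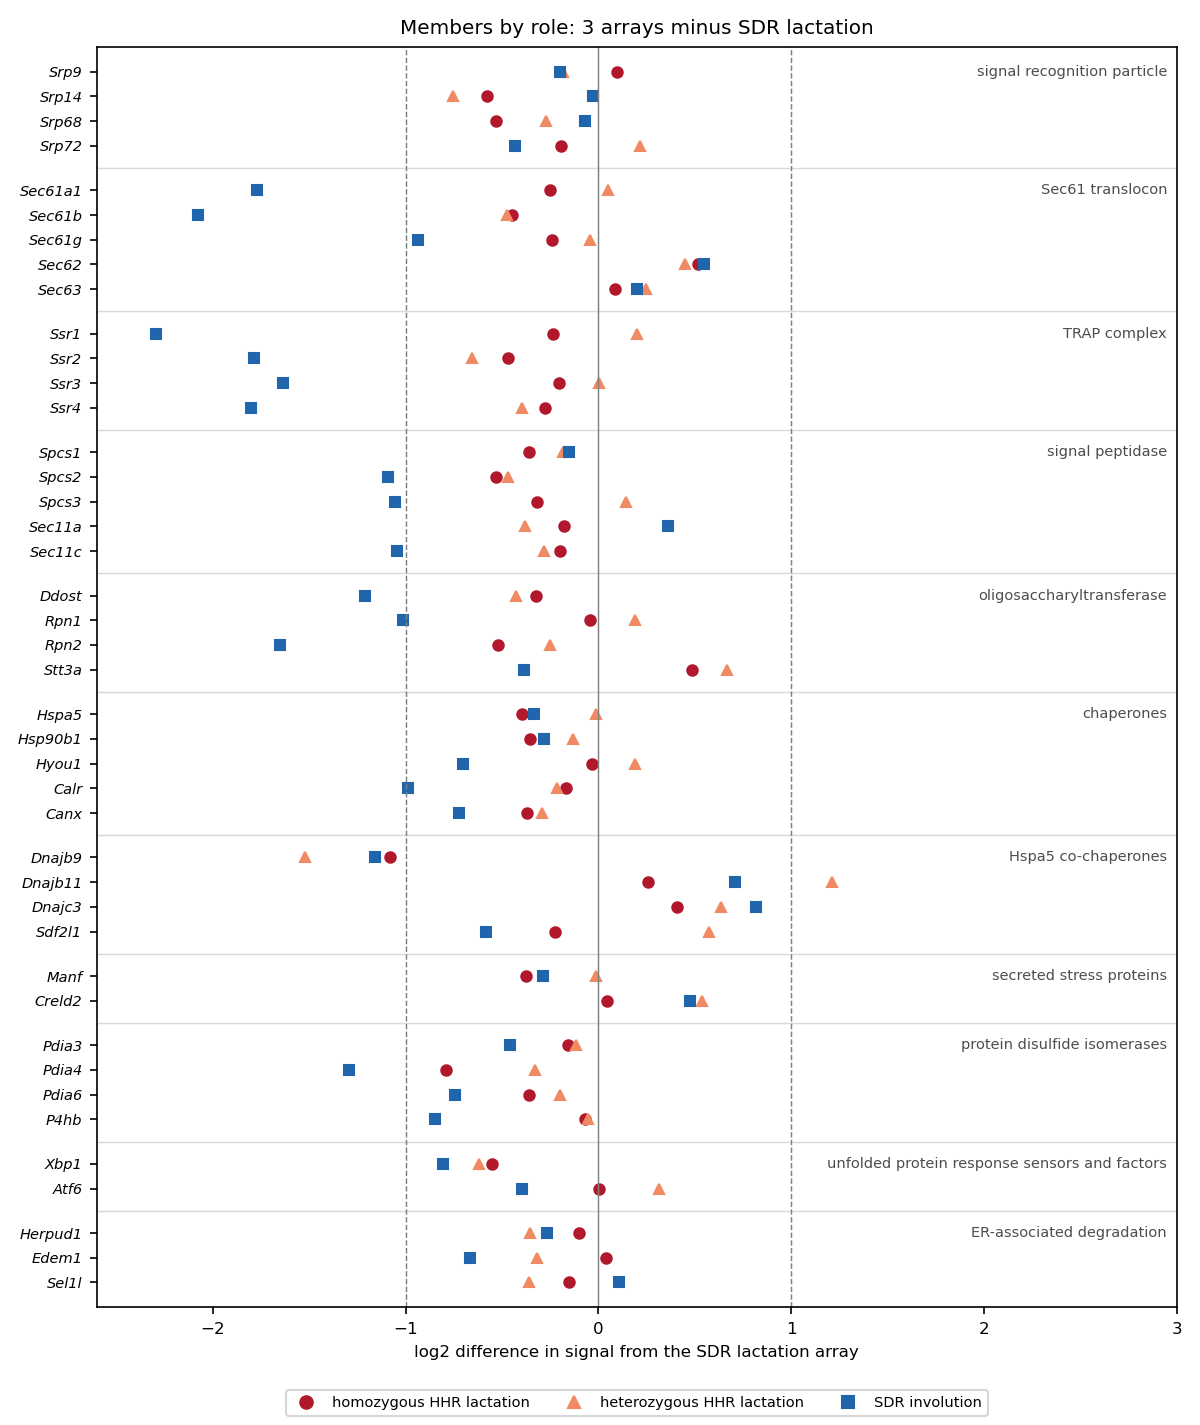
Log2 difference in signal of each gene of the list from the SDR lactation array, by role, for homozygous HHR (circles), heterozygous HHR (triangles) and SDR involution (squares), with dashed lines at 2-fold. Squares of TRAP lie between -2.30 and -1.64, while those of the signal recognition particle lie between -0.43 and -0.03.

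The 9 genes with an ERSE or ERSE-II match had a median log2 difference of -0.33 in involution (from -0.99 to 0.82), and 0 were at least 2-fold lower. The 28 genes on the array with a promoter entry and no match had a median of -0.89 (from -2.30 to 0.71), and 13 were at least 2-fold lower. The genes without a match include all 21 entry genes with a promoter, so the match and the role of the gene cannot be told apart here. In homozygous HHR the same medians were -0.17 and -0.23.

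Involution was the lowest of the 4 arrays for 27 of the 42 genes, against 27.5% of 11395 genes above the floor in at least 1 array. For 7 genes it was at least 2-fold below each of the 3 lactation arrays, against 4.19% of these genes. By the probe set that represents each gene, these 7 were Ssr1, Ssr2, Ssr3, Ssr4, Sec61a1, Sec61b and Rpn2, all of them genes of entry into the ER.

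The lactating gland of homozygous HHR was set against that of SDR, to show how the machinery stands in the mutant. Most genes of the list had a slightly lower signal in homozygous HHR, and the Dnajb9 co-chaperone passed 2-fold. Of the 42 genes 33 were lower (78.6%, against 48.6% of measured genes), 1 was at least 2-fold lower (2.38%, against 2.72% of 10866 measured genes) and 0 at least 2-fold higher (3.77% of measured genes). At 1.5-fold 2 were lower (9.99% of measured genes), Dnajb9 and Pdia4, and 0 higher (12.2%). The median log2 difference was -0.23 over the list and 0.02 over all measured genes, and the counts past either threshold are no larger than those of all genes. All role groups except the co-chaperones had a median below 0. Pdia4 was 1.73-fold lower, Srp14 1.49-fold lower, Xbp1 1.47-fold lower and Rpn2 1.44-fold lower in homozygous HHR, while Sec62 was 1.43-fold and Stt3a 1.40-fold higher.

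By the probe set that represents each gene, entry genes that were at least 2-fold lower in involution were close to the SDR lactation level in homozygous HHR. Among the 18 genes from the channel to the oligosaccharyltransferase 0 reached 1.5-fold in homozygous HHR, and their log2 differences ran from -0.53 (Spcs2) to 0.51 (Sec62), with a median of -0.25. With the mean of all probe sets Sec61a1 and Ssr3 passed 1.5-fold, at -0.69 and -0.63. The myoepithelial markers, of which 6 of 7 were on the array, summed to 26441 in homozygous HHR, 26494 in heterozygous HHR and 19534 in involution, against 14677 in SDR lactation. In homozygous HHR, heterozygous HHR and involution alike, 5 of these 6 were higher than in SDR lactation and 1, Oxtr, was lower. The median log2 differences of these markers were 1.03, 0.71 and 0.34 in that order. The 3′ to 5′ ratios of both controls were also higher in homozygous HHR. The part of either in the small shift of the list was not tested.

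The lactating gland of heterozygous HHR, with the allele in single dose, was also set against that of SDR. By the probe set that represents each gene, the chaperones and the pore were near the SDR level. By that measure co-chaperones gave the largest differences of the list in both directions. Further probe sets of Sec61a1, Canx and Hyou1 were 2.58-fold, 2.46-fold and 2.87-fold lower. That of Hyou1 lay under the floor in heterozygous HHR, and the other further Canx probe set had a log2 difference of -0.20. Of the 42 genes 1, Dnajb11, was at least 2-fold higher (2.38%, against 4.58% of 10876 measured genes), at 2.32-fold, and 1, Dnajb9, was at least 2-fold lower (against 4.15%). At 1.5-fold 3 were higher (13.8% of measured genes), namely Dnajb11, Stt3a and Dnajc3, and 4 lower (13.0%), namely Dnajb9, Srp14, Ssr2 and Xbp1. In all 27 genes were lower (64.3%, against 49.0% of measured genes), with a median log2 difference of -0.16, against 0.01 over all measured genes. Hspa5 had a log2 difference of -0.01, Manf of -0.01 and Ssr3 of 0.00, while the further probe sets of Ssr3 gave -1.62 and 0.30. Sdf2l1 and Creld2 were 1.49-fold and 1.45-fold higher, while Herpud1 and Edem1 had log2 differences of -0.36 and -0.32.

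**Figure D3:**
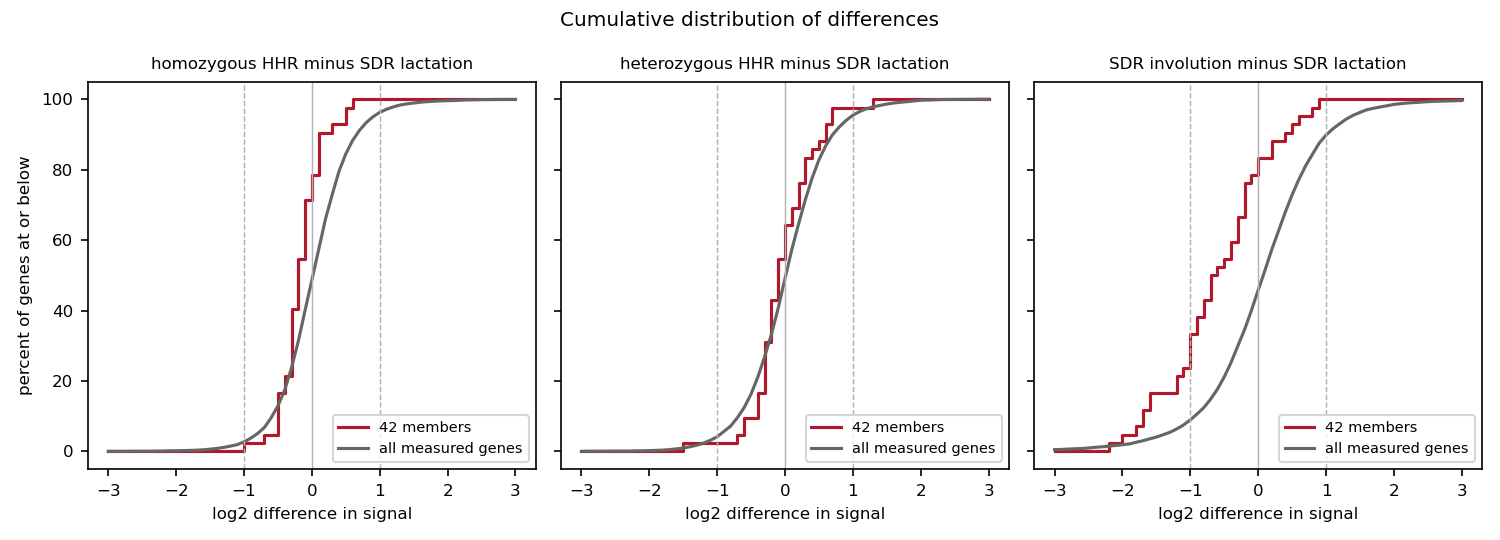
Percent of genes at or below each log2 difference in signal, for the 42 genes of the list (red steps) and all measured genes (grey), read in steps of 0.1, in homozygous HHR, heterozygous HHR and SDR involution, each against SDR lactation. At -1, the dashed line of 2-fold lower, the list stands at 33.3% in involution.

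Homozygous and heterozygous HHR were compared directly, a comparison that does not use the SDR lactation array. Dnajb11, Sdf2l1 and several other folding genes were lower in the homozygous gland, short of 2-fold, and the 3 listed degradation genes were slightly higher, while 10 of 14 other degradation genes were lower (median -0.16). Of the 42 genes 0 were at least 2-fold higher (3.76% of 10877 measured genes) and 0 at least 2-fold lower (3.14%). At 1.5-fold 2 were lower (11.0% of measured genes), Dnajb11 at 1.94-fold and Sdf2l1 at 1.73-fold, and 0 were higher (12.3%). The median log2 difference was -0.17 over the list, with 27 of 42 genes lower, and 0.00 over all measured genes, of which 49.8% were lower. Creld2 was 1.41-fold, Pdia4 1.38-fold, Hspa5 1.31-fold and Manf 1.29-fold lower in homozygous HHR. Edem1, Herpud1 and Sel1l had log2 differences of 0.36, 0.25 and 0.21, and Dnajb9 was 1.36-fold higher.

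For 12 of the 42 genes the array holds several probe sets, and 17 of their 19 further probe sets were above the floor in at least 1 array. In 5 genes a further probe set gave a far lower value against SDR lactation than the probe set that represents the gene. The further Sec61a1 probe set had 631 in homozygous HHR, 865 in heterozygous HHR and 399 in involution, against 2230 in SDR lactation, 3.53-fold lower in homozygous HHR where the representing probe set was 1.19-fold lower. A further Ssr3 probe set had 504, 572 and 237, against 1762 in SDR lactation, and a further Canx probe set had 752, 1025 and 722, against 2526 in SDR lactation. Further probe sets of Atf6 and Hyou1 were 3.34-fold and 2.06-fold lower in homozygous HHR, where their representing probe sets had log2 differences of 0.01 and -0.03. In all 5 the SDR lactation array was the high one.

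Of the 17 further probe sets, 5 lay at least 2-fold below the representing one in homozygous HHR against SDR lactation and 1, of Pdia3, lay as far above it. In heterozygous HHR against SDR lactation 5 lay below and 0 above, and in involution against SDR lactation 3 lay below and 1 above. In homozygous against heterozygous HHR there were 0 of either kind. Over all genes the shares below were 13.7%, 12.5%, 14.5% and 3.17% in the same order. The Gapdh and actin 3′ to 5′ ratios were lowest in SDR lactation, and their part in this disagreement was not tested. Dnajb9 and Dnajb11 have a single probe set each, so their values have no such check.

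**Figure D4:**
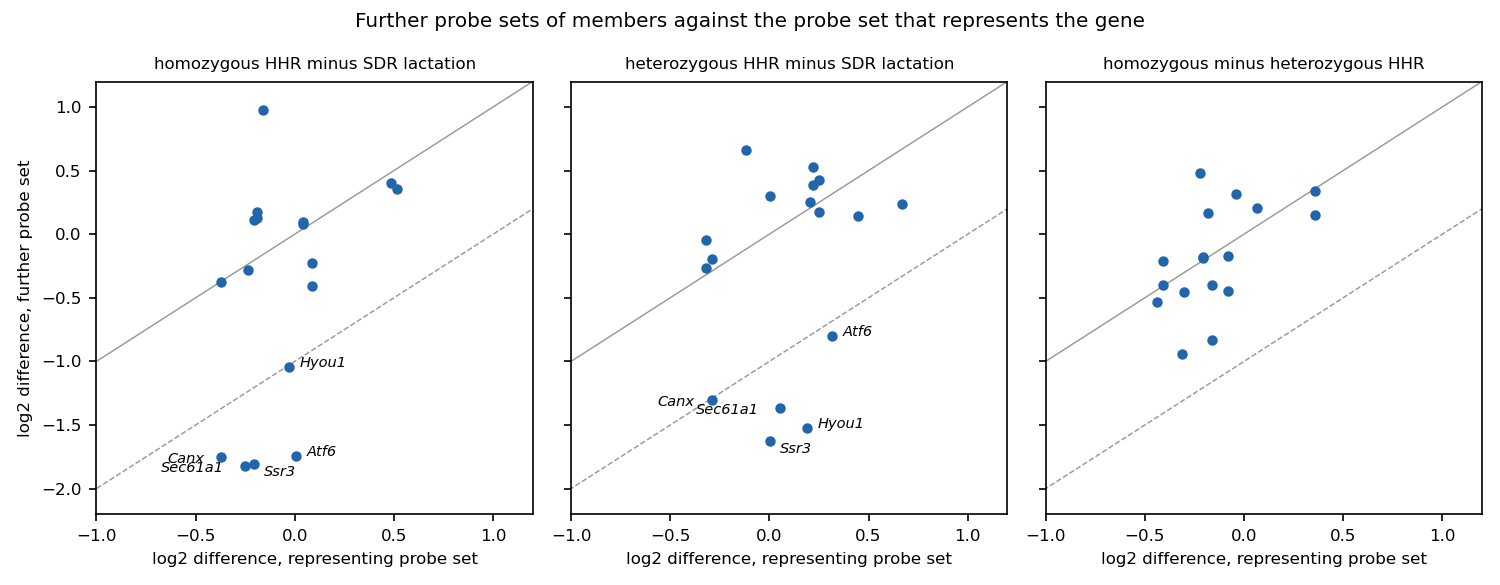
Log2 difference in signal of each further probe set of a listed gene (vertical) against the probe set that represents the gene (horizontal), for 3 comparisons, with a solid line of equality and a dashed line 2-fold below it. Points below the dashed line are named, 5 in each comparison with SDR lactation and 0 between the HHR arrays.

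Other genes of the pathway were taken from a list of 86, of which 80 were on the array, and 78 were measured in involution or SDR lactation. In involution 23 were at least 2-fold lower (29.5%) and 3 at least 2-fold higher (3.85%), against 8.94% and 10.3% of all measured genes. The median log2 difference was -0.59, against 0.08 over all measured genes. Genes of exit from the ER, which load folded proteins into transport vesicles, were lower in 15 of 15, with 7 past 2-fold and a median of -0.996. Of all measured genes 45.7% were lower in involution. The cargo receptor Mcfd2 had 6413 in homozygous HHR, 5083 in heterozygous HHR and 2404 in involution, against 10907 in SDR lactation (4.54-fold lower in involution), and its partner Lman1 was 3.45-fold lower. The vesicle coat genes Sec24d, Sec23b and Sec31a were 4.40-fold, 4.02-fold and 3.12-fold lower, the retrieval receptor Kdelr2 was 3.14-fold lower and Arfgap3 3.89-fold lower.

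In the list of ER folding and glycosylation 8 of 27 measured genes were at least 2-fold lower in involution (29.6%, against 8.94% of all measured genes). At that threshold 0 were higher (10.3% of all measured genes). Fkbp11, a proline isomerase of the ER, had 13244 in homozygous HHR, 15528 in heterozygous HHR and 1529 in involution, against 16055 in SDR lactation, 10.5-fold lower in involution. Ostc and Dad1, further subunits of the oligosaccharyltransferase, were 5.59-fold and 2.67-fold lower. Serp1, which sits at the channel, had 16641, 16484 and 4560, against 20405 in SDR lactation (4.47-fold lower). The remaining genes past 2-fold were Ganab, Ero1b, Txndc5 and Txndc11. Stt3b, the paralog of Stt3a that works after translation, had 4759, 4668 and 5095, against 4180 in SDR lactation.

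Of the further genes of targeting and translocation 3 of 7 were at least 2-fold lower in involution (42.9%, against 8.94% of measured genes) and 1 higher (14.3%, against 10.3%). Tram1, a channel partner, was 3.33-fold lower, and the receptor subunits Srpra and Srprb were 3.17-fold and 2.19-fold lower. Sec61a2, the paralog of the pore gene, went the other way, with 824 in homozygous HHR, 1055 in heterozygous HHR and 1099 in involution, against 517 in SDR lactation (2.13-fold higher). Of the degradation genes 2 of 14 were at least 2-fold lower (14.3%, against 8.94% of measured genes), Edem2 at 2.23-fold and Erlec1 at 2.14-fold. At that threshold 0 were higher (10.3% of measured genes), and the extraction ATPase Vcp was 1.71-fold higher.

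The list of the PERK arm and other stress factors, which also holds ER-bound transcription factors and the proteases that release them, differed from gene to gene in involution. Of its 15 genes 3 were at least 2-fold lower (20.0%, against 8.94% of measured genes) and 2 higher (13.3%, against 10.3%). Eif2ak3, which encodes PERK, had 1210 in homozygous HHR, 953 in heterozygous HHR and 504 in involution, against 1171 in SDR lactation (2.32-fold lower in involution). Creb3l1, an ER-bound transcription factor, was 4.37-fold lower and Ppp1r15b, which helps to reverse the block of translation, 2.52-fold lower. Trib3, a target of this arm, was 2.60-fold higher and Atf3 2.62-fold higher. Ddit3, the CHOP factor of ER stress, had 223 in homozygous HHR, 323 in heterozygous HHR and 553 in involution, against 404 in SDR lactation, so it was lowest in homozygous HHR and highest in involution.

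In homozygous HHR 4 of 77 measured genes of the 86 were at least 2-fold lower (5.19%, against 2.72% of all measured genes) and 1 higher (1.3%, against 3.77%), with a median log2 difference of -0.17. Those lower were Lman1 at 2.42-fold, Uggt1, the folding sensor for glycoproteins, at 2.30-fold, Pdia5 at 2.13-fold and Atf4 at 2.03-fold. The gene higher was Atf3, with 460 in homozygous HHR and 97.1 in SDR lactation. In heterozygous HHR 3 were lower (3.9%, against 4.15% of all measured genes), Ero1b at 2.23-fold, Pdia5 at 2.22-fold and Mcfd2 at 2.15-fold, and 1 higher (1.3%, against 4.58%), Sec61a2 at 2.04-fold, with a median of -0.05. Between homozygous and heterozygous HHR 0 of 77 were at least 2-fold lower and 1, Atf3, was higher, with a signal under the floor in heterozygous HHR; the median log2 difference was -0.13.

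**Figure D5:**
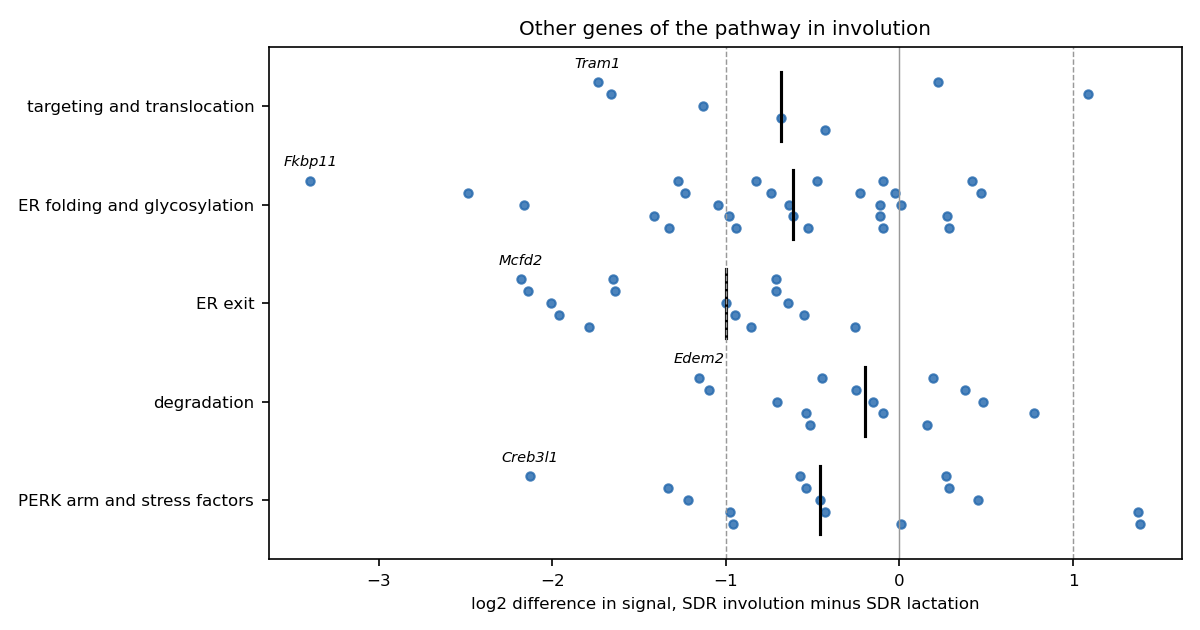
Log2 difference in signal, SDR involution minus SDR lactation, of other genes of the pathway in 5 lists, with 1 point per gene above the floor in at least 1 array, a black bar at each list's median and dashed lines at 2-fold. All 15 genes of ER exit lie below 0, and Fkbp11 lies lowest at -3.39.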

How the data were processed

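Total RNA of 4 rat mammary samples, 1 per group, was purified on columns and labelled with biotin, per the labels. The authors deposited an intensity for each probe set, the linear signal of MAS5, per the submitters' processing notes. Each array had been scaled alike, since the mean over probe sets without the lowest and highest 2% came to 500.2 in all 4. No version, parameter or detection call of MAS5 is stated in the sources used here. No column was left without a sample.

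Of 31099 probe sets 57 were controls, 20832 carried 1 symbol in the platform annotation, 436 several and 9774 none, and the last 2 kinds were not used. By gene ID, 0 symbols differed from RefSeq GRCr8. Signals under 91.5, the 40th percentile of all arrays together, were set to that floor before taking log2. Where a gene had several probe sets, the brightest on average stood for it. A gene counts as measured in a comparison if at least 1 of both arrays was above the floor, as were 10368 to 10472 genes per array.

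With 1 array per group there is no test or error, and the number of arrays limits the precision. Counts at 2-fold and 1.5-fold and medians were set beside those of all genes. The members, the other gene lists and the markers were chosen with earlier results of these data known. Signals are given for each member, and of the other pathway genes those past 2-fold are named with a few examples. Fibroblast, endothelial and macrophage and neutrophil markers were also summed (66154, 5399 and 5691 in homozygous HHR, 42589, 4833 and 4048 in heterozygous HHR, 53477, 5193 and 10591 in SDR involution, and 66954, 8161 and 6598 in SDR lactation). Alternatives were median centring, quantile normalization, floors at the 25th and 55th percentile, the floor as pseudocount, the mean of all probe sets, and probe sets without shared-probe suffixes. The sequence of 1 promoter match is not reported here. The steps were tested on simulated data. Python 3.11.15, numpy 2.4.6 and pandas 2.3.3 were used.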

Additional observations from a re-analysis of the deposited data

How the results depend on the processing

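Over 7 alternatives of scaling, floor and probe set choice, the counts of listed genes past 2-fold stayed within 1.5 times and the medians within 0.1 of the values given, except that with quantile normalization the median log2 difference in SDR involution against SDR lactation was -0.495, against -0.68 as given. With 1.5-fold in place of 2-fold, homozygous HHR against SDR lactation gave 2 genes lower in place of 1. Heterozygous HHR against SDR lactation gave 3 higher in place of 1 and 4 lower in place of 1. Homozygous against heterozygous HHR gave 2 lower in place of 0. SDR involution against SDR lactation gave 22 lower in place of 14 and 2 higher in place of 0. In involution, Hspa5 turned to 0.02, Srp14 to 0.11 and Spcs1 to 0.07 with quantile normalization, and Pdia3 to 0.49 and Sec63 to -0.09 with the mean of all probe sets. Canx turned to 0.35 with quantile normalization, after which the brightest probe set was picked anew. Its log2 difference between homozygous and heterozygous HHR was then -0.17, as in the further Canx probe set with 0.22 in involution. In the representing Canx probe set that difference was -0.08. Signs also turned with the mean of all probe sets for Atf6, Hyou1, Pdia3, Sec61a1, Sec63, Srp72 and Ssr3, with quantile normalization for Hspa5, P4hb and Rpn1, and with median centring for Atf6 and Ssr3, in 1 or more comparisons of the HHR arrays. Rpn1, Sec11c, Spcs2 and Spcs3 were at least 2-fold lower in involution in 6 of 7 alternatives, and the other 10 genes called lower in all 7. No paired analysis was possible because each group has 1 array, and no array could be left out for the same reason. The bright end of the scale limits what can be seen of strongly expressed genes.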

Other observations

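The disagreement between probe sets of the same gene was counted over the whole array after it was seen in listed genes. In homozygous HHR against SDR lactation, 557 of 4079 further probe sets (13.7%) lay at least 2-fold below the probe set that represents their gene and 93 (2.28%) at least 2-fold above it. In heterozygous HHR against SDR lactation these were 514 of 4116 (12.5%) and 147 (3.57%), and in SDR involution against SDR lactation 605 of 4178 (14.5%) and 307 (7.35%). Between homozygous and heterozygous HHR, which leaves out the SDR lactation array, they were 124 of 3907 (3.17%) and 76 (1.95%). The median deviation was -0.27, -0.22, -0.21 and -0.05 on the log2 scale in that order. The first 3 comparisons share the SDR lactation array, which had the lowest 3′ to 5′ ratios of both controls, and whether RNA quality has a part in this was not tested.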
